A study of Mus musculus with 18 samples.

Results

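The genes described here are those that a dividing cell switches on in G2 and mitosis. A set of 43 mouse genes was named, from cyclins and mitotic kinases to spindle motors and condensins, and 39 of them had a probe set on the array, among 8251 genes with a probe set of 1 symbol. Ccnb1, Cdc25b, Bub1b and Hmmr had no probe set under those symbols and were not analysed here. Each gene is given by 1 probe set, the one with the highest mean signal over all arrays. The rule names genes and uses no measured value, although the list was drawn up with earlier results of these data known, and all 39 passed the filter on low signal, which was set on the mean over all arrays.

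The study grew C3H10T1/2 cells, a clonal mouse embryo fibroblast line that can be turned into fat cells, with or without an adipogenic mix, epidermal growth factor (EGF) and TCDD, in all 8 combinations. Every group was collected 72 h after its last serum and 24 h after the cells became confluent, so the cultures compared were dense and without fresh serum. The mix, called IDMB, was given for 24 h and contained insulin at 10 µg/mL, the phosphodiesterase inhibitor IBMX at 0.5 µM, the glucocorticoid dexamethasone at 1 µM and BRL49653 (rosiglitazone, which activates PPARG) at 1 µM. EGF was added at 10 nM for 24 h, and TCDD, the dioxin that activates the aryl hydrocarbon receptor, was present at 10 nM for 72 h. UT and IDMB had 3 arrays each, and EGF, TCDD, EGF+TCDD, IDMB+EGF, IDMB+TCDD and IDMB+EGF+TCDD had 2 each. UT is not spelled out in the labels and was read as the group that received none of these agents. RNA of 6 cultures was pooled for each array, and the labels do not say whether the arrays of a group came from separate experiments, so p-values measure only the spread between these arrays.

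A cell that has copied its DNA raises cyclins A and B, which bind the kinase CDK1 and drive it into mitosis. Motors then build the spindle, the checkpoint holds anaphase until every chromosome is attached, and the anaphase-promoting complex with its activator CDC20 ends mitosis by destroying securin and cyclin B. These genes are repressed in resting cells and are transcribed together late in the cycle, under FOXM1, B-MYB and complexes that bind CHR elements and CCAAT boxes in their promoters. Since whole cultures were measured, fewer cells in G2 or mitosis and less RNA per cell cannot be told apart.

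The promoters show what these genes share in sequence. RefSeq promoter entries (build GRCm38.p6, 250 bases before to 50 after the first listed start) were matched for 31 of the 39 genes; Aurkb, Ccna2, Cdc25c, Foxm1, Incenp, Kif20a, Smc4 and Stmn1 were not matched. On either strand, CCAAT occurred in 24 of the 31 (77.4%), against 37.9% of all 27025 promoters. The core letters of a CHR element, TTTGAA or TTCGAA, occurred in 23 (74.2%, against 19.4%). Both motifs were present in 21 (67.7%, against 7.7%). An E2F-like site was searched as the letters TTCCCGC, in another spelling as TTGGCGC, in a further one as TTCGCGC and in the last one as TTGCCGC, and 4 genes held at least 1 of them (12.9%, against 9.69%). A match describes the letters only and is not shown to be a binding site. The 150 bases before the start are printed for the 5 genes with the largest mean EGF effect among those that held both motifs in that stretch. Sequences run 5′ to 3′ on the gene's strand, with CCAAT (or ATTGG, the same box on the other strand) and TTTGAA (or TTCAAA) in capitals. Ect2 has another start listed, which is not shown.
Mki67, the chromosome surface protein Ki-67, chr7:135716380-135716529, minus strand: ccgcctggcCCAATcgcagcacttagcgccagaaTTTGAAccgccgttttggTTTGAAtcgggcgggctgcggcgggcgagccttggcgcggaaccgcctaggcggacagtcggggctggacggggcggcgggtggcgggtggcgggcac
Ect2, an activator of RhoA in cytokinesis, chr3:27153879-27154028, minus strand: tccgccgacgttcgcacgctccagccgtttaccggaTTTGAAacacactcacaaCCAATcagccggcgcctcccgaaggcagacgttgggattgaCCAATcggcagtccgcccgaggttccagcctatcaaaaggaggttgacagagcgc
Cdk1, the mitotic kinase, chr10:69352913-69353062, minus strand: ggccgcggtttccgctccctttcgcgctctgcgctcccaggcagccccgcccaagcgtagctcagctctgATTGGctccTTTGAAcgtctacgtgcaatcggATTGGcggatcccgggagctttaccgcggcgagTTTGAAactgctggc
Kif11, the motor that pushes the spindle poles apart, chr19:37376232-37376381, plus strand: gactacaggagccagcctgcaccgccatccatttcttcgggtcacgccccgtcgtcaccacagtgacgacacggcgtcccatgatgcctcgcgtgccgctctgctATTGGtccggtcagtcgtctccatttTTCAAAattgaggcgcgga
Kif22, a motor that binds chromosome arms, chr7:127042421-127042570, minus strand: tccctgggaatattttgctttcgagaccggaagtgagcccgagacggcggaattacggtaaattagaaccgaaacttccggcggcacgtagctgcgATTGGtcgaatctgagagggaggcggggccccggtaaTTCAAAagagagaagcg
The arrangements described next are those in the printed 150 bases. The longer promoter entries hold further matches, with 3 CCAAT boxes each in Mki67, Ect2 and Cdk1. They also hold 2 CHR copies in Ect2, and 2 boxes and 2 CHR copies in Kif22. In the printed bases of Mki67 a single CCAAT box, 141 bases before the start, is followed by CHR letters at 116 and 98 bases. Cdk1 carries CHR letters only 15 bases from its start and a second copy at 71, each downstream of an inverted CCAAT box (48 and 80 bases). Kif11 and Kif22 have a like arrangement with 1 box (45 and 54 bases) and 1 CHR copy (19 and 17 bases). In Ect2 the CHR letters come first, at 114 bases, with CCAAT boxes at 96 and 55. The presence of both motifs did not go with a larger response: the median mean EGF effect was log2 1.04 in the 21 genes with both and 1.07 in the other 10.

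Fibroblast identity was checked with 11 markers, among them Col1a1, Col1a2, Fn1 and Vim. Their summed signal was between 280300 and 563000 on every array, against 1110 to 9976 for 5 adipocyte markers and 717.8 to 3103 for 5 macrophage markers. The fibroblast sum was lower with IDMB alone (280300 to 324700) than in UT (511500 to 563000), and the adipocyte sum was higher (6452 to 9976 against 2695 to 3577). Both sums were lower with TCDD alone than in UT (fibroblast 305200 to 402600, adipocyte 1649 to 1744). EGF arrays had a fibroblast sum of 522000 to 549400 and an adipocyte sum of 1366 to 1405. The ratio of 3′ to 5′ Gapdh probes, a sign of RNA quality, also differed between groups, at 1.25 to 1.52 in UT, 1.43 and 2.47 with EGF, 0.854 and 0.919 with TCDD and 2.34 and 2.71 with EGF+TCDD. With IDMB it was 1.19 to 1.73, with IDMB+EGF 1.75 and 1.76, with IDMB+TCDD 1.05 and 1.09 and with IDMB+EGF+TCDD 2.13 and 2.86. The same ratio of actin was 1.23 to 1.93 on the arrays without IDMB and 1.8 to 3.8 on those with it (1.37 to 1.43 in UT and 1.8 to 2.25 with IDMB alone). The part of the marker sums in the results was not tested, and fits with a 3′ to 5′ ratio are given where they changed the calls.

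The 39 genes moved as a block from array to array. A score per array was taken as the mean over the genes of the log2 signal minus each gene's mean over the 18 arrays. It was highest on the EGF arrays (1.16 and 1.12), and the EGF+TCDD arrays gave 0.898 and 0.795. The UT arrays gave -0.289, -1.28 and -0.799, and the IDMB arrays -0.362, -0.8 and -0.756. The groups with mixed treatments lay between, at -0.0501 and 0.373 for IDMB+EGF and 0.639 and -0.165 for IDMB+EGF+TCDD. TCDD was split, with 0.909 on array 1 and -0.573 on array 2, and so was IDMB+TCDD, with 0.439 and -1.26. The EGF arrays thus overlapped no other group, while the ranges of the UT, IDMB, TCDD and IDMB+TCDD arrays overlapped one another. The EGF group had the highest mean of the 8 groups in 32 of the 39 genes, and the lowest mean fell in UT for 22, IDMB for 11 and IDMB+TCDD for 5.

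**Figure D1:**
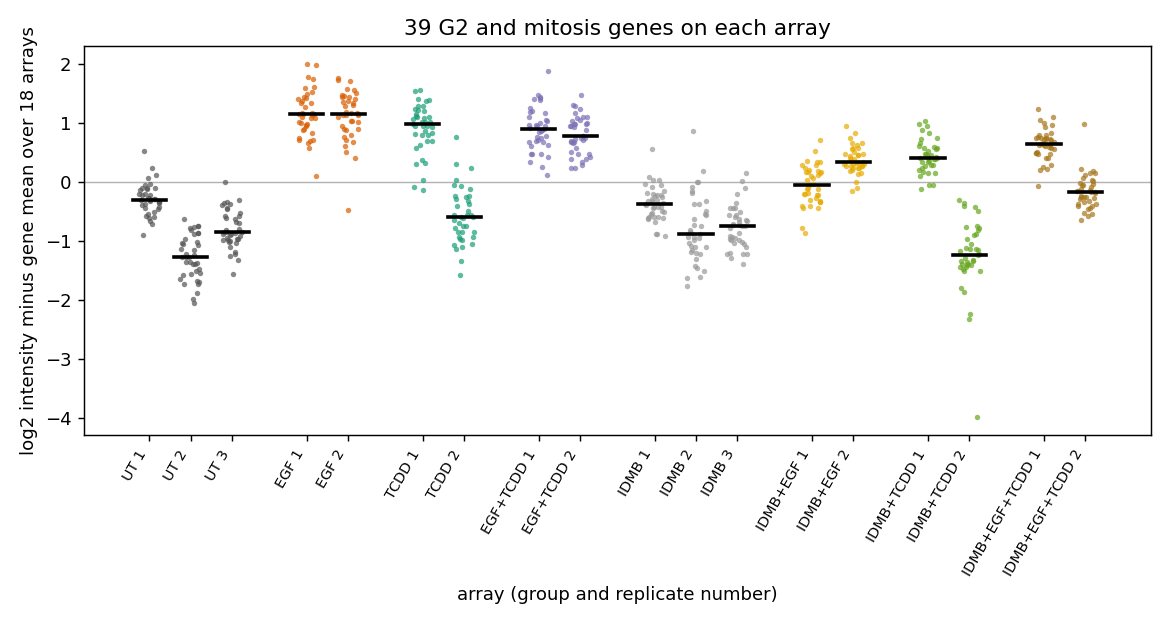
Each point is 1 of the 39 genes on 1 array, as log2 signal minus that gene's mean over the 18 arrays, and bars are medians. Both EGF and both EGF+TCDD arrays sit above 0, while the 2 TCDD arrays stand far apart, as do the 2 IDMB+TCDD arrays.

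EGF alone raised the mitotic program of confluent fibroblasts. Against UT, 31 of the 39 genes were higher and 0 lower (limma, adjusted p under 0.05, n = 2 against 3), beside 2.46% of all 9316 probe sets called higher. The median difference was log2 1.98, or 3.95-fold, against -0.01 over all probe sets tested. In 38 of the 39 genes both EGF arrays lay above all UT arrays, the exception being Cenpe, and this held for 16.9% of all probe sets. The 8 genes that were not called, Foxm1, Plk1, Aurkb, Mad2l1, Ube2c, Cdca3, Cenpe and Kif23, also had differences above 0, from log2 0.45 for Cenpe to 2.44 for Kif23.

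The calls, unlike the median difference, depended on single arrays. Without UT 2, without EGF 1 or without EGF 2, 0 of the 39 genes passed limma's adjusted threshold, although 36 or 37 still had an unadjusted p under 0.05 and the median difference stayed at log2 1.78 to 1.95. Without UT 1 there were 32 calls, and without UT 3 there were 26. Calls over all 9316 probe sets changed as well: 229 were higher with all arrays and 53 without UT 2. The number was 202 without UT 1 and 234 without UT 3. With the Gapdh 3′ to 5′ ratio as a covariate 1 gene was called and with that of actin 8, at medians of log2 1.9 and 2. Of all 9316 probe sets, 80 and 83 were then called higher. With no filter on low signal 0 genes were called (lowest limma adjusted p = 0.0629). The median there was log2 1.98, and 37 genes had an unadjusted p under 0.05. Of the 12422 probe sets tested without the filter, 95 were called higher.

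Among the genes of the cyclin and CDK1 engine, 6 of 7 rose. Cdk1 itself gave signals of 12962, 6496 and 8956 on the UT arrays and 37559 and 43199 on the EGF arrays, so the lowest EGF array was well above the highest UT array. It was 4.43-fold higher (log2 2.15, SE 0.45, adjusted p = 0.0142), where this and every later SE is on the log2 scale. Cks2, a small subunit of the CDK1 complex, read 7570, 3796 and 5007 in UT and 29975 and 22315 with EGF, a 4.94-fold rise (SE 0.509, adjusted p = 0.0197). The mitotic cyclin Ccnb2 rose 3.35-fold (SE 0.368, adjusted p = 0.0146). Ccna2, the cyclin of S phase and G2, rose 2.37-fold (SE 0.321, adjusted p = 0.0365), among the smaller changes. Cks1b, which helps to clear the CDK inhibitor p27, rose 2.4-fold (SE 0.329, adjusted p = 0.0385). Cdc25c, the phosphatase that activates CDK1, had a difference of log2 1.79 and was also called, and the transcription factor gene Foxm1 (1.43) was not.

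Of 6 mitotic kinases, 4 rose. Aurka, the kinase of the centrosome and spindle poles, was at 1751, 980.3 and 1726 in UT and at 7591 and 7585 with EGF, which left no overlap (5.28-fold, SE 0.565, adjusted p = 0.0265). The checkpoint kinase Ttk was at 2512, 1399 and 1561 in UT and at 7004 and 6936 with EGF (3.95-fold, SE 0.415, adjusted p = 0.0138). Bub1, which recruits the checkpoint to kinetochores, rose 5.52-fold (SE 0.64, adjusted p = 0.0383), and the centrosome kinase Nek2 was called at log2 1.82. For Plk1, which acts from mitotic entry to cytokinesis, the probe set used here gave log2 1.6 and was not called, but both other Plk1 probe sets were (log2 2.85, adjusted p = 0.0159, and 2.41, adjusted p = 0.0264). Aurkb, the kinase of the chromosomal passenger complex, had a difference of 1.35 and was not called.

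The genes that control anaphase gave the fewest calls, 2 of 5. Cdc20, the activator of the anaphase-promoting complex, read 5790, 2570 and 2787 on UT arrays and 22904 and 16884 on EGF arrays. Its rise was 5.68-fold (SE 0.517, adjusted p = 0.0129). Pttg1, which encodes securin, the inhibitor of separase, was called at log2 1.89. Mad2l1, the checkpoint protein that holds CDC20 inactive, Ube2c, a ubiquitin-conjugating enzyme of the same complex, and Cdca3 were not called, at 1.81, 0.67 and 1.02.

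At the kinetochore and in the passenger complex 3 of 4 genes rose. Birc5 (survivin) was at 4359, 2562 and 3051 in UT and at 15103 and 15349 with EGF, 4.7-fold higher (SE 0.535, adjusted p = 0.0281). Its partner Incenp and the centromeric histone Cenpa were called at log2 1.85 and 1.82. Cenpe, a kinetochore motor, was dim, with UT signals of 376.8, 128.2 and 103.2 and EGF signals of 389.7 and 188.5. These ranges overlapped, and 3 of its 18 values were under the floor of 143.5 below which signals were not ordered.

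Spindle motors and microtubule proteins gave 9 calls of 10. Tacc3, which stabilises kinetochore fibres, had the largest difference of all 39 genes. It read 1276, 327.8 and 463 in UT and 4570 and 4555 with EGF (7.89-fold, SE 0.655, adjusted p = 0.0195), and its fold ran from 5.94 to 11.7 when single arrays were left out. Kif20a, a motor of the central spindle, read 8735, 3233 and 4591 in UT and 27174 and 31908 with EGF (5.82-fold, SE 0.52, adjusted p = 0.0124), and its second probe set gave log2 2.72 (second probe sets of other genes, some of them without a call, are given at the end). The chromosome motor Kif4 rose 4.43-fold (SE 0.455, adjusted p = 0.0149). Stmn1, which depolymerises microtubules and is not restricted to mitosis, rose 3.2-fold (SE 0.417, adjusted p = 0.0312). Kif11, Kif2c, Kif22, Nusap1 and Prc1 were called at log2 1.71 to 2.29. Kif23, a motor of the midbody, had a difference of log2 2.44 but the widest spread within groups of all 39 genes (SD 1.17) and was not called.

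All 3 cytokinesis genes and all 4 genes of chromosome structure rose. Ect2, which activates RhoA at the division furrow, was at 1139, 502.3 and 704.8 in UT and at 5514 and 4585 with EGF (6.81-fold, SE 0.616, adjusted p = 0.0204). Racgap1, its partner at the central spindle, and Anln, which links actin and septins in the furrow, were called at log2 2.08 and 2.07. Mki67, the Ki-67 proliferation marker, read 6201, 2316 and 3770 in UT and 21760 and 25463 with EGF, with no overlap (6.22-fold, SE 0.63, adjusted p = 0.0277). A dimmer probe set of Mki67 gave log2 -0.2. Top2a, the topoisomerase that untangles sister DNA, rose 5-fold (SE 0.514, adjusted p = 0.0197). The condensin subunits Smc2 and Smc4 rose 3.68-fold (SE 0.445, adjusted p = 0.027) and 2.55-fold (SE 0.359, adjusted p = 0.042).

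**Figure D2:**
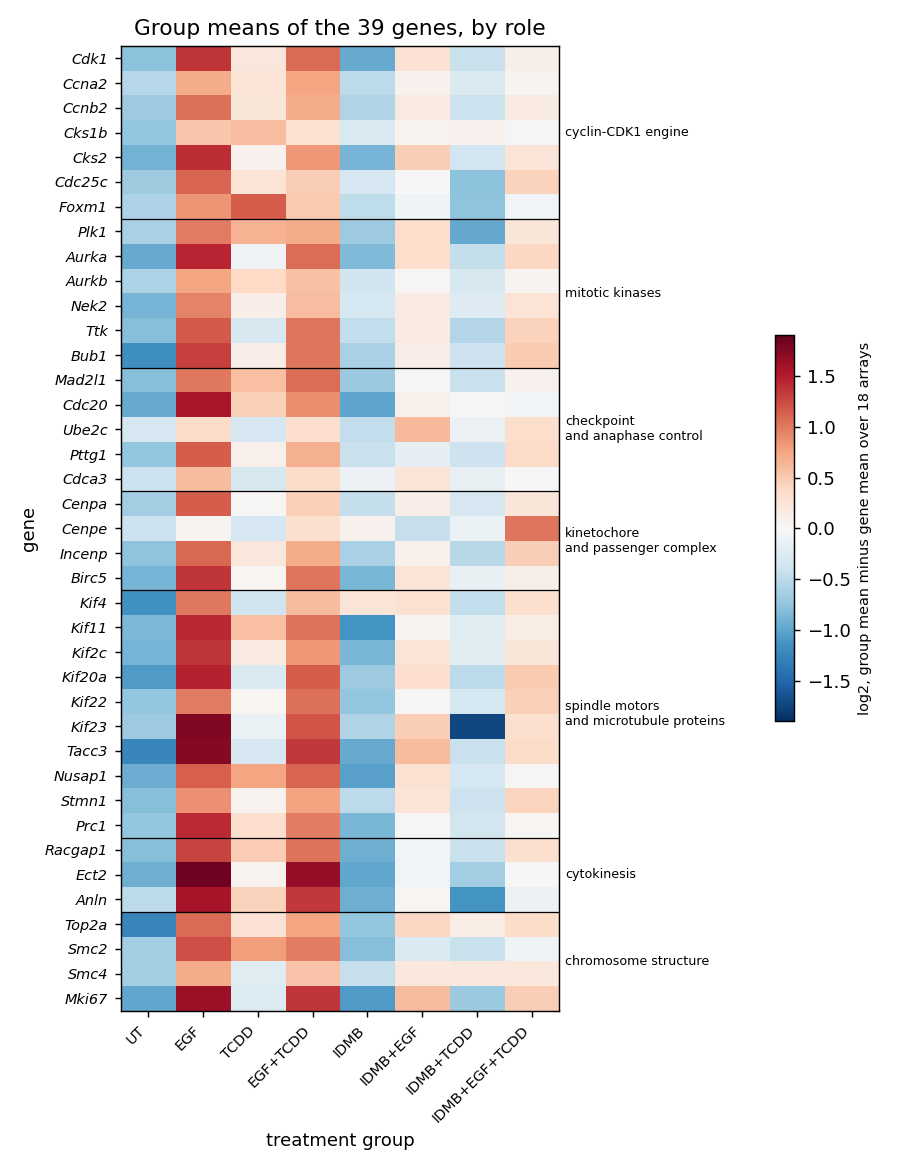
Colour gives the group mean of log2 signal minus the gene's mean over 18 arrays, for 39 genes in rows and 8 groups in columns. The EGF column has the highest mean in 32 genes, EGF and EGF+TCDD are above 0 in all 39, UT is below 0 in all 39 and IDMB in 37.

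With TCDD, with IDMB or with both present, adding EGF gave smaller median differences than against UT, and 0 of the 39 genes passed the test in any of these 3 comparisons. The median difference was log2 0.64 for EGF+TCDD against TCDD, 0.76 for IDMB+EGF against IDMB and 0.61 for IDMB+EGF+TCDD against IDMB+TCDD, and the medians over all probe sets were 0.01, 0.01 and 0.05. The medians with TCDD turned with 1 array: EGF+TCDD against TCDD gave -0.1 without TCDD 2 and 1.33 without TCDD 1, and IDMB+EGF+TCDD against IDMB+TCDD gave -0.18 without IDMB+TCDD 2 and 1.48 without IDMB+TCDD 1. That of IDMB+EGF against IDMB stayed between 0.56 and 1.11. At an unadjusted limma p under 0.05 the counts were 6, 9 and 4. Of all probe sets, 0.88%, 1.33% and 0.107% were called higher. In the presence of IDMB both IDMB+EGF arrays lay above all 3 IDMB arrays in 30 of the 39 genes and in 14.7% of all probe sets. Tacc3, for example, read 1151, 479 and 633.9 with IDMB and 2252 and 1904 with IDMB+EGF (2.94-fold, SE 0.655, adjusted p = 0.239). The arrays of the TCDD groups overlapped more, with 15 genes above without overlap for EGF+TCDD against TCDD (26% of all probe sets) and 3 for IDMB+EGF+TCDD against IDMB+TCDD (24.6%).

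The 4 EGF comparisons share no arrays, and their mean had smaller standard errors than any of them. By the mean EGF effect 33 of the 39 genes were higher and 0 lower, beside 5.1% of all probe sets called higher, with a median of log2 1.01 (range 0.3 to 1.78). The difference was above 0 in each of the 4 comparisons for 34 genes, the others being Cks1b, Foxm1, Cdc20, Cenpe and Smc4. Mki67 had the largest mean effect on the probe set used (3.43-fold, SE 0.33, adjusted p = 0.00357), followed by Tacc3 (3.34-fold, SE 0.344, adjusted p = 0.00532). The second probe set of Mki67 gave a mean effect of only log2 0.06. The most significant was the kinase Ttk (2.35-fold, SE 0.217, adjusted p = 0.00282), near Kif20a (2.81-fold, SE 0.273, adjusted p = 0.00335) and Cdk1 (2.29-fold, SE 0.236, adjusted p = 0.00534). The 6 genes not called were Cks1b, Foxm1, Aurkb, Mad2l1, Cenpe and Smc2. All 10 spindle genes and all 3 cytokinesis genes were called.

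Leaving out 1 array gave between 14 and 36 calls for the mean EGF effect. The count fell by over 1.5 times without EGF 2 (19), TCDD 2 (14), EGF+TCDD 1 (18), IDMB+EGF 2 (20), IDMB+TCDD 2 (17) or IDMB+EGF+TCDD 1 (15). Anln, Aurka, Ccnb2, Cdk1, Cks2, Ect2, Incenp, Kif20a, Kif22, Mki67, Stmn1, Tacc3 and Ttk, 13 genes, were called in each of the 18 fits with 1 array left out. With a 3′ to 5′ ratio as a covariate, of Gapdh or of actin, 0 genes were called (limma; 1 and 30 at an unadjusted p under 0.05), while the median difference was log2 0.99 and 1.08 and the median SE rose from 0.251 to 0.644 and 0.429. With no filter on low signal fewer genes were called, as given at the end, at a median of log2 1.01.

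**Figure D3:**
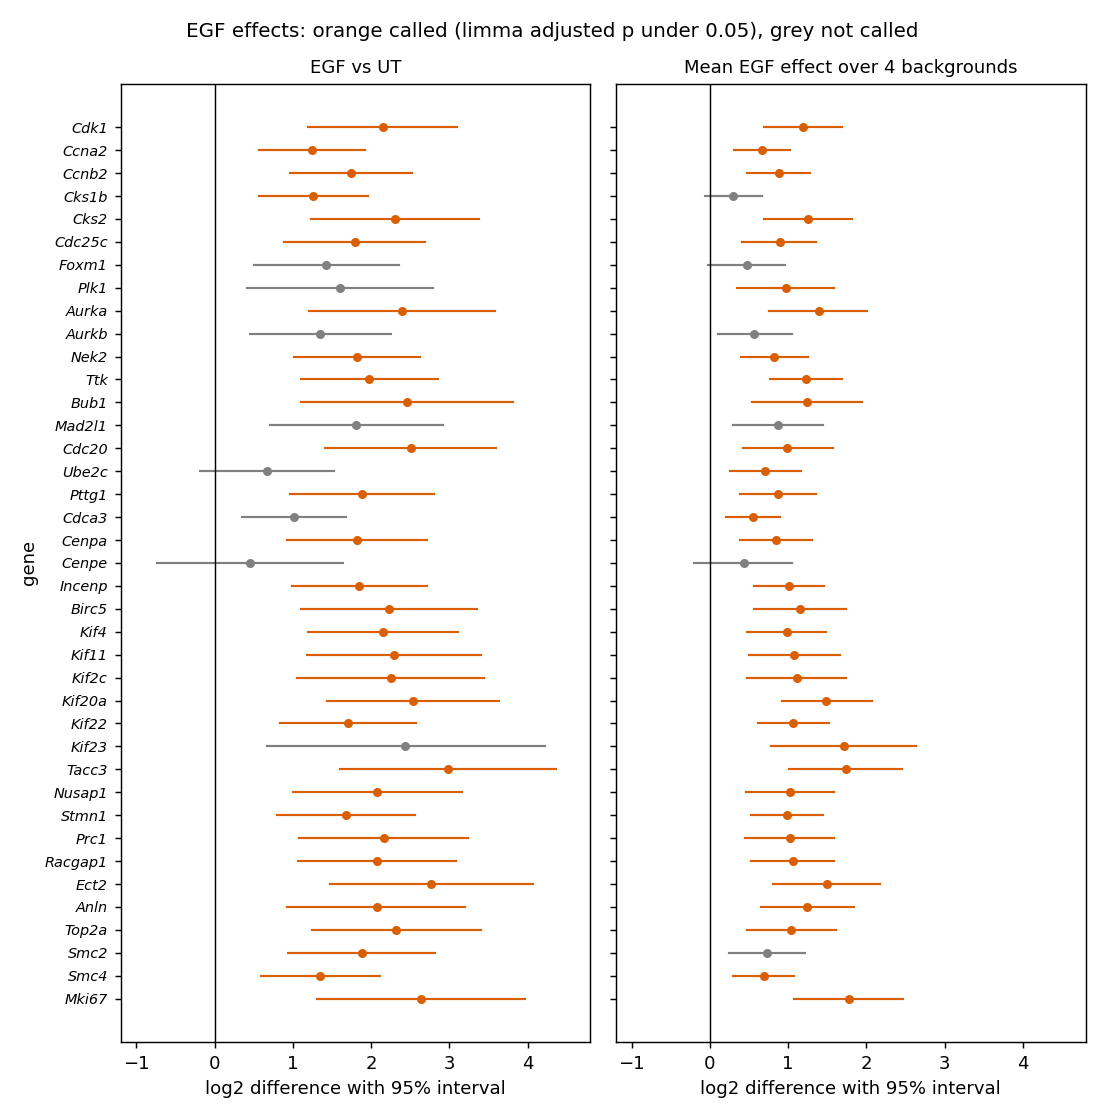
Points are limma log2 differences with 95% intervals for the 39 genes, for EGF against UT (left) and for the mean of the 4 EGF comparisons (right), with called genes in orange. All points lie right of 0, and the intervals are narrower on the right, where more arrays contribute.

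TCDD alone moved few of these genes past the test. Against UT, 2 were higher and 0 lower, beside 2.65% of probe sets called higher. Foxm1, the transcription factor of the G2 program, was at 3531, 1102 and 2636 in UT and at 9588 and 5500 with TCDD, above all UT arrays (log2 1.74, SE 0.438, adjusted p = 0.0305). Cks1b was at 7069, 3399 and 6448 in UT and at 17184 and 10443 with TCDD (log2 1.32, SE 0.329, adjusted p = 0.0291). Both calls were lost without UT 2, TCDD 1 or TCDD 2, and without TCDD 2 another gene of the set was called. With the Gapdh ratio as a covariate neither was called (Foxm1 log2 1.57, limma adjusted p = 0.331; Cks1b 1.01, adjusted p = 0.385). Differences were above 0 in all 39 genes, with a median of log2 0.94, and 11 genes were above UT without overlap, beside 19.4% of all probe sets. The median was 0.11 without TCDD 1, where 15 genes turned below 0, and 1.79 without TCDD 2.

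The 2 TCDD arrays stood apart from each other in every one of the genes. TCDD 1 was higher than TCDD 2 in 39 of 39 genes, by a median of 2.9-fold, while over all probe sets TCDD 1 was higher in 44.4%. Cdk1 was at 31568 on TCDD 1 and 10358 on TCDD 2, and Mki67 at 13321 and 2958. By its score TCDD 1 was nearest to the EGF+TCDD arrays, and TCDD 2 lay within the range of the UT arrays.

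With EGF and without IDMB, most readings were lower with TCDD, but none passed the test, and the median was log2 -0.29 for EGF+TCDD against EGF. In 29 genes both EGF+TCDD arrays lay below both EGF arrays, as in 16.7% of all probe sets, and 0.0322% of probe sets were called lower. Of the 39 genes 0 were called, and 0 had an unadjusted limma p under 0.05. With IDMB the TCDD medians were log2 0.27 (IDMB+TCDD against IDMB) and 0.02 (IDMB+EGF+TCDD against IDMB+EGF), where 4.54% and 0.279% of probe sets were called. The sign of both rested on 1 array: the first was -0.51 without IDMB+TCDD 1 and 1.11 without IDMB+TCDD 2, and the second -0.4 without IDMB+EGF+TCDD 1 and 0.41 without IDMB+EGF+TCDD 2. Again 0 genes were called, and 0 and 1 had an unadjusted p under 0.05. Over the 4 comparisons the mean TCDD effect had a median of log2 0.26 (range -0.33 to 0.53), with 0 of 39 called, 0 at an unadjusted limma p under 0.05 and 3.93% of all probe sets called, and the median was 0.04 without TCDD 1 and 0.45 without IDMB+TCDD 2.

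With IDMB alone a single gene of the set passed the test. Against UT the median difference was log2 0.11 (-0.16 without UT 2), and 1 gene was higher and 0 lower. That share was no larger than the 4.84% of all probe sets called higher. That gene was Kif4, at 2261, 1100 and 1516 in UT and at 5077, 3456 and 3841 with IDMB, without overlap (2.62-fold, SE 0.407, adjusted p = 0.0365). The call was lost without UT 2, UT 3 or any of the IDMB arrays, and with the actin ratio as a covariate (log2 1.54, limma adjusted p = 0.182). Cdk1 read 10195, 6342 and 8022 with IDMB, within the range of its UT values apart from the lowest array, and Mki67 read 5736, 2752 and 2871.

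In cells given EGF, the genes read lower with IDMB, short of the test. IDMB+EGF against EGF, which shares its EGF arrays with the comparison against UT, had a median of log2 -1.03, and 37 of the 39 genes were below the EGF arrays without overlap, as were 25.5% of all probe sets, and 3.57% of all probe sets were called lower. Of the 39, 0 passed the test (14 at an unadjusted limma p under 0.05). Ect2 showed the largest difference, from 5514 and 4585 with EGF to 817.1 and 2217 with IDMB+EGF (log2 -1.9, SE 0.674, adjusted p = 0.104). Both IDMB+EGF arrays of Cdk1, at 19122 and 18509, were also under its EGF arrays. With TCDD as well, IDMB+EGF+TCDD against EGF+TCDD gave a median of log2 -0.58 (-0.19 without IDMB+EGF+TCDD 2, -1 without IDMB+EGF+TCDD 1), 26 genes below without overlap (26.1% of all probe sets), 0 calls (2.01% of all probe sets called lower) and 3 at an unadjusted limma p under 0.05.

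Against TCDD, the only call with IDMB+TCDD was a lower Foxm1 (median of the set log2 -0.48). That share of the 39 genes was no larger than the 4.35% of all probe sets called lower. Foxm1 was at 9588 and 5500 with TCDD and at 2984 and 1230 with IDMB+TCDD (log2 -1.92, SE 0.48, adjusted p = 0.0191). Without IDMB+TCDD 2 its difference was -1.28, and the call was lost there, without TCDD 1 and with the actin ratio as a covariate (-1.65, limma adjusted p = 0.296). The median of the 39 genes changed sign with the same arrays, to 0.36 without TCDD 1 and 0.31 without IDMB+TCDD 2. It was -1.38 without IDMB+TCDD 1 and -1.36 without TCDD 2.

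Over the 4 comparisons the mean IDMB effect lowered 9 genes and raised 0, beside 14% of all probe sets called lower, and its median was log2 -0.48. The 9 were Cdk1, Foxm1, Kif11, Nusap1, Prc1, Racgap1, Ect2, Anln and Smc2, which include all 3 cytokinesis genes. Anln fell most, by log2 -1.25 (SE 0.282, adjusted p = 0.00305). Its signal ranged from 1561 to 9760 over the 9 arrays with IDMB and from 3049 to 22039 over the 9 without. Ect2 fell by 1.09 on the log2 scale (SE 0.323, adjusted p = 0.0187), Smc2 by -0.98 (SE 0.233, adjusted p = 0.00471) and Foxm1 by -0.82 (SE 0.23, adjusted p = 0.0134). Anln, Foxm1 and Smc2 were called whichever array was left out, with 3 to 25 genes called in all. The lowest counts came without TCDD 1, IDMB+EGF 1 or IDMB+TCDD 2 (3 each) and the highest without TCDD 2 (23) or IDMB+TCDD 1 (25). Counts of 4 were found without EGF 2, EGF+TCDD 1 or IDMB+EGF+TCDD 2, and of 5 without UT 1, EGF+TCDD 2 or IDMB 2. Of all 9316 probe sets, 2323 were called in either direction without UT 1 and 2377 without IDMB 2. With each array scaled to the same median 5 genes were called, and with the actin ratio as a covariate 0 were called (limma; 0 also at an unadjusted p under 0.05). Over all probe sets these 2 settings gave 2282 and 409 calls in either direction.

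**Figure D4:**
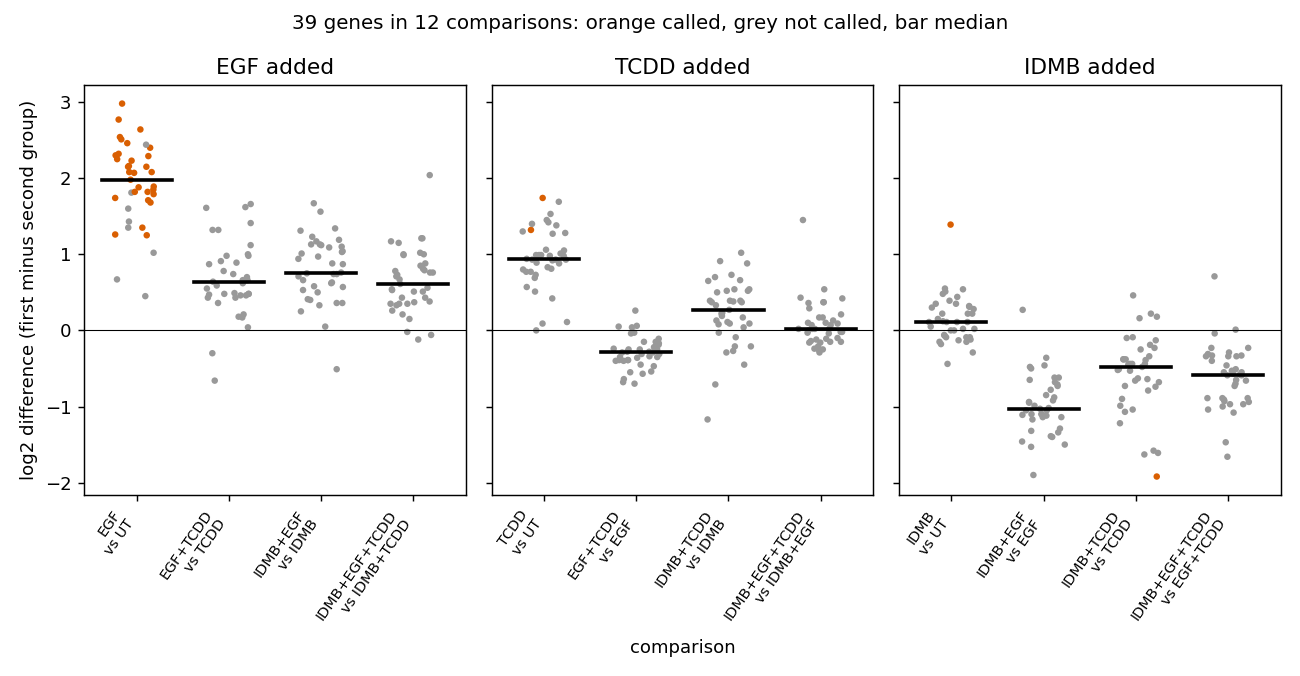
Each point is 1 of 39 genes, as the log2 difference of the first group minus the second, in the 12 comparisons that add EGF, TCDD or IDMB to a background. The EGF against UT column stands highest (median 1.98), and the columns for EGF in the other backgrounds have medians of 0.61 to 0.76.

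Whether the EGF effect depended on the other agents was tested directly. The EGF effect was lower with IDMB by a median of log2 -0.58 and lower with TCDD by a median of -0.71, in 36 and 38 of the 39 genes. With 1 array left out these medians ran from -0.13 (without IDMB+TCDD 1) to -1.03 (without IDMB+TCDD 2) and from -0.29 to -1.21 (without the same arrays). In neither case was a gene called (limma; 2 and 6 at an unadjusted p under 0.05), while 0.0537% and 2.77% of all probe sets were called. The differences for single genes were largest for Ect2 with IDMB (log2 -1.38, SE 0.646, adjusted p = 0.472) and for Cdc20 with TCDD (-1.62, SE 0.543, adjusted p = 0.116). With all 18 arrays, a smaller EGF effect with IDMB or TCDD was therefore not shown for any single gene. Without IDMB+TCDD 2 the difference of Cdc20 with TCDD was -2.11. The interaction of TCDD with IDMB had a median of -0.12 (-0.56 without TCDD 2, 0.32 without IDMB+TCDD 2), with 0 genes called and 0 at an unadjusted p under 0.05 (0.0966% of probe sets called).

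In the 10 arrays that received no TCDD, fitted alone, EGF raised 34 of 39 genes against UT, beside 1.91% of all probe sets. There, IDMB+EGF against EGF had 11 genes lower (2.71% of all probe sets) and IDMB+EGF against IDMB had 4 genes higher (0.666%). The EGF by IDMB interaction was still called in 0 genes by limma (0.0107% of all probe sets), with 26 at an unadjusted p under 0.05 and a median of log2 -1.13. This fit was added after the spread of the TCDD arrays had been seen.

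**Figure D5:**
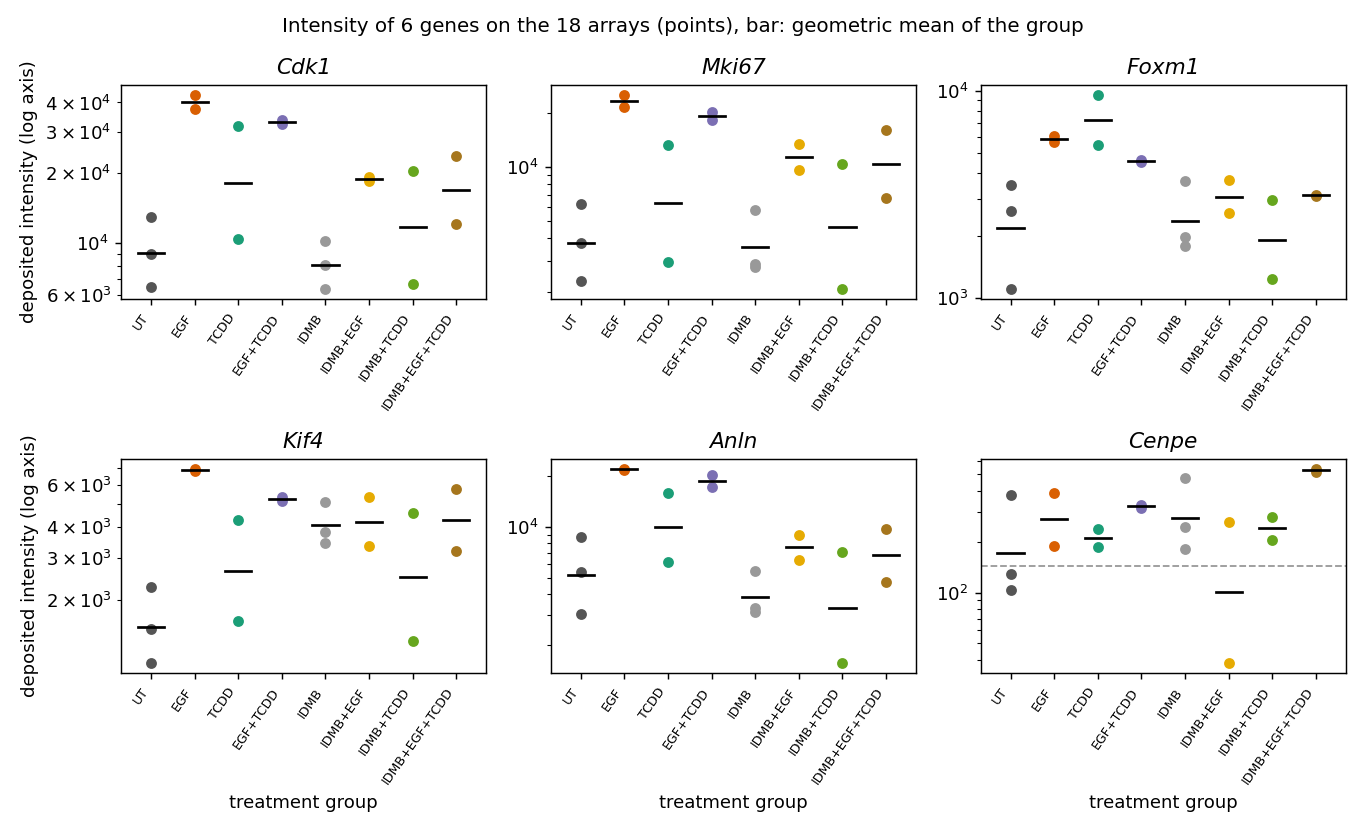
Deposited signal of Cdk1, Mki67, Foxm1, Kif4, Anln and Cenpe on the 18 arrays, on log axes, with bars at the geometric mean of each group and a dashed line at the floor of 143.5 for Cenpe. Cdk1, Mki67 and Anln peak with EGF, Foxm1 peaks with TCDD, Kif4 has its lowest mean in UT, and Cenpe overlaps between EGF and UT.

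The spread between arrays of a group was larger for these genes than for most. The median SD within groups was 0.619 on the log2 scale, against 0.341 over all probe sets tested, and all 39 genes were above that background median. It was not even across groups. IDMB+TCDD 1 exceeded IDMB+TCDD 2 in 39 of 39 genes (median 3.11-fold), IDMB+EGF+TCDD 1 exceeded array 2 in 38 (1.81-fold) and UT 1 exceeded UT 2 in 38 (1.99-fold). Over all probe sets array 1 was higher in 48.2%, 47% and 50.6%. The 2 EGF arrays differed by a median of 1-fold, with 20 genes higher on array 1. The Gapdh ratios of TCDD 1 and 2 were 0.919 and 0.854, and those of IDMB+TCDD 1 and 2 were 1.05 and 1.09. For UT 1 and 2 they were 1.52 and 1.45, and for IDMB+EGF+TCDD 1 and 2 they were 2.13 and 2.86. The actin ratios of arrays 1 and 2 were 1.43 and 1.23 for TCDD and 1.98 and 2.07 for IDMB+TCDD. They were 1.37 and 1.43 for UT and 2.48 and 3.8 for IDMB+EGF+TCDD. The part of RNA quality or other differences between these cultures was not tested.

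The genes tracked one another over all 18 arrays. The correlation of each gene with the mean of the others had a median of 0.954, and it was over 0.8 in 36 of 39, the others being Foxm1 (0.75), Ube2c (0.695) and Cenpe (0.336). The points share arrays and treatment groups, so these values only describe. Among 6710 other genes measured, the profiles most like the mean of the 39 were those of Cip2a (0.985), an inhibitor of protein phosphatase 2A, the nuclear import receptor Kpna2 (0.97), the passenger complex subunit Cdca8 (0.962), the histone chaperone Asf1b (0.959), the condensin subunit Ncaph (0.958), the clamp loader subunit Rfc5 (0.958), Ckap2 (0.955) and Rangap1 (0.955).

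Other cell cycle genes were taken as background for the pathway. Of 41 further G2 and mitosis genes on the array, 17 rose and 0 fell with EGF against UT (median log2 1.17, beside 2.46% of all probe sets called higher), and 18 rose and 0 fell by the mean EGF effect (0.61, beside 5.1%). Among them were the cyclin Ccnf (mean effect 2.28-fold, SE 0.2, adjusted p = 0.002), Ncaph (2.45-fold, SE 0.237, adjusted p = 0.00335) and the spindle pole gene Aspm (3.21-fold, SE 0.458, adjusted p = 0.0293). The fold of Aspm depends on the floor of 143.5, since it read 88.6 on UT 2, 102.5 on UT 3 and 76.3 on IDMB 2. By the mean IDMB effect 1 rose and 13 fell, beside 11.5% and 14% of all probe sets. Of 38 S phase genes tested, 17 rose with EGF against UT (median 1.18, beside the same 2.46%) and 26 fell by the mean IDMB effect (-0.66, beside the same 14%). Mcm5, a subunit of the replicative helicase, fell by 1.13 on the log2 scale with IDMB (SE 0.195, adjusted p = 0.000313) and rose by 1.05 with EGF (SE 0.195, adjusted p = 0.00358).

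Of 23 tested G1 cyclin, CDK inhibitor and quiescence genes, 1 rose and 1 fell with EGF against UT, near the 2.46% and 1.76% of all probe sets called higher and lower. Ccnd1, the G1 cyclin D1, was at 12945, 9665 and 13782 in UT and at 17258 and 19009 with EGF, a difference of log2 0.59 that was not called (adjusted p = 0.439). With IDMB it was at 2922, 1924 and 1113, and its mean IDMB effect was log2 -3.02 (8.12-fold lower, SE 0.185, adjusted p = 2.31e-09). Cdkn1a, the CDK inhibitor p21, was lower by the mean TCDD effect (log2 -0.59, SE 0.112, adjusted p = 0.0054) and was not called for EGF (-0.17, adjusted p = 0.423).

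Where a gene had more than 1 probe set, as 11 of the 39 did, the others did not always show the same change. Kif20a, Cdc25c and Bub1 were also called on a second probe set (mean EGF effects of log2 1.55, 1.52 and 1.12), although that of Bub1, at the floor on 6 arrays, was not called with EGF against UT (1.45, adjusted p = 0.123). For Plk1, a further probe set was called by the mean EGF effect (log2 1.62, limma adjusted p = 0.00527) and another was not (0.87, adjusted p = 0.0763). The second probe set of Mki67 gave log2 -0.2 with EGF against UT (adjusted p = 0.908) and a mean EGF effect of 0.06, and correlated at -0.337 with the one used. That of Incenp gave 0.47 (adjusted p = 0.542) and -0.16. Those of Pttg1 and Nusap1 gave 1.25 and 0.81 with EGF against UT (adjusted p = 0.27 and 0.686) and mean effects of 0.69 and 0.44, which were not called either. The second probe set of Foxm1 was called with EGF against UT (log2 2.7, adjusted p = 0.0336), unlike the one used, but gave 0.15 for the mean EGF effect. Its values for TCDD and IDMB are not given here, so the Foxm1 calls in those comparisons were not checked on it. The other probe sets of Cenpe and Stmn1 and another of Bub1 were under the filter, at the floor on 9 to 15 arrays.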

How the data were processed

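Signal intensities from 18 single-colour arrays were analysed as the authors deposited them, on a linear scale. The scanner software and scaling method are not given in the sources used here, but the mean without the outer 2% on each side was 2501.4 to 2501.7 on every array, so the arrays had been scaled to a common mean. Array medians ran from 793.35 to 935.7. Values under 143.5 (the 20th percentile) were set to that floor and log2 was taken. Of 12488 probe sets, 66 were controls, 10833 had 1 gene symbol in the platform annotation, 396 several and 1193 none. Probe sets were tested where the mean over all 18 arrays reached the 25th percentile (a signal of 222.2), which left 9316 for 6749 genes.

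One mean per group was fitted with limma 3.58.1 in R 4.3.3, with a variance trend (residual degrees of freedom 10, prior 6.83) and Benjamini-Hochberg adjustment over all 9316 probe sets within each of 18 comparisons, at a threshold of 0.05. A mean effect weights the 4 backgrounds equally. Comparisons with the same control group share its arrays. The number of arrays limits the precision. Tested on simulated data with 200 of 9316 genes changed, this recovered 44% of log2 changes of 1 and 75% of changes of 2 for EGF against UT (5 false calls), and 82% and 98% for the mean EGF effect (12 false calls). No arrays were identical (highest correlation 0.9731).

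The 39 genes and all lists were chosen with earlier results of these data known, so no p is given over a list. The rule for named genes took every one of the 39 genes, a few cell cycle genes set by name, the 8 other G2 and mitosis genes with the largest mean EGF effect and the 8 genes most alike in profile. Cdkn1c was under the filter, and adipocyte, macrophage, endothelial (summed signal 603 to 2086) and epithelial (2064 to 4067) genes served as markers. Whether replicate numbers pair the arrays was not settled. Over 57 pairs of arrays with the same number, correlations of deviations from group means ran from -0.0595 to 0.343. Their median was 0.0206, with 9 over 0.1 and 0 under -0.1. In a group of 2 arrays the deviations mirror each other, so many of these pairs repeat a value. Between such groups, pairs of unlike number carry the same value with the sign turned. Their median over all such pairs in the series, -0.0178, is therefore no separate baseline. Array 1 exceeded array 2 in 38 of the 39 genes in UT, 39 in TCDD, 33 in IDMB, 39 in IDMB+TCDD and 38 in IDMB+EGF+TCDD. The number was 20 in EGF, 26 in EGF+TCDD and 5 in IDMB+EGF. Over all probe sets array 1 exceeded array 2 in 44.4% (TCDD) to 53.1% (EGF+TCDD). Alternatives were the scaling, the floor, the filter, the replicate number as a block, 3′ to 5′ ratios as covariates and leaving out each array.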

Additional observations from a re-analysis of the deposited data

How the results depend on the processing

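No alternative run turned the direction of a count of calls or of the 36 single-gene values followed, but the median of the 39 genes changed sign without 1 array in 7 of the 18 comparisons, all of them with TCDD except IDMB against UT, and it was 0 with the Gapdh ratio for IDMB+EGF+TCDD against IDMB+EGF. Over the alternatives these values lost their call in 151 cases, gained one in 2 and kept their side of the threshold in 457. With no filter on low signal, calls were 0 for EGF against UT, TCDD against UT, IDMB against UT and IDMB+TCDD against TCDD, 11 for the mean EGF effect and 2 for the mean IDMB effect. With the Gapdh ratio as a covariate they were 1 for EGF against UT, 0 for TCDD against UT and 0 for the mean EGF effect, and with the actin ratio 8 for EGF against UT and 0 for IDMB against UT, IDMB+TCDD against TCDD and both mean effects of EGF and IDMB. The calls over all probe sets, in either direction and in the same order, were as follows. With no filter they were 184, 338, 875, 655, 643 and 2232 of 12422. With the Gapdh ratio they were 164, 31 and 0 of 9316, and with the actin ratio 159, 451, 185, 0 and 409. With array medians made equal, 5 of the 39 genes were called for the mean IDMB effect, beside 2282 of all probe sets. The labels do not say what the replicate number marks, and not every array correlated best with its own number. With that number as a block, calls were 32 for EGF against UT, 35 for the mean EGF effect and 6 for TCDD against UT. Of all 9316 probe sets, 593, 973 and 713 were then called in either direction. EGF+TCDD against TCDD and IDMB+EGF against IDMB had 1 each (236 and 409 of all probe sets). IDMB+EGF against EGF had 4 (826) and IDMB+TCDD against TCDD had 3 (929). The block gave 15 for the mean IDMB effect (2534) and 2 for the EGF by TCDD interaction (523). For that interaction the share of the 39 genes was no larger than that of all probe sets. Quantile normalization, a floor at the 10th percentile and a filter on the highest group mean moved no count by over 1.5 times. The arrays without TCDD, fitted alone (chosen after seeing the data), gave 4 for IDMB+EGF against IDMB and 11 for IDMB+EGF against EGF. Leaving out each array in turn gave 0 to 32 calls for EGF against UT, 14 to 36 for the mean EGF effect, 3 to 25 for the mean IDMB effect, 0 to 2 for TCDD against UT, 0 to 1 for IDMB against UT, IDMB+EGF+TCDD against IDMB+TCDD and IDMB+TCDD against IDMB (the call in these last comparisons came without IDMB+TCDD 1), 0 to 8 for IDMB+TCDD against TCDD, 0 to 3 for the EGF by TCDD interaction and 0 for the others. Calls over all probe sets also changed with the array left out, as for EGF against UT, with 53 called higher without UT 2 and 234 without UT 3. Where a count changed, the cause was not tested, apart from the larger standard errors with the covariates for EGF. Signals near the floor, as for Cenpe, limit what can be ordered.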
